A study of Mus musculus with 6 samples.

Results

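The 9 genes described here encode the TAK1 kinase complex and the ubiquitin ligases next to it: Map3k7 (the kinase TAK1), its partners Tab1, Tab2 and Tab3, the Pellino ligases Peli1, Peli2 and Peli3, the ligase Traf6 and the kinase Irak1. They were taken by gene name from a table of transcript levels and cover 56 of its 115220 transcripts and 9 of its 47729 genes. Map3k7 and Peli1 were chosen because 1 transcript of each was more than 5-fold higher after knockout of GSK3β, and the other 7 genes were added as their partners. The knockout comparison was therefore used in choosing the members, and their differences between groups are given as a description, with no p-value. Counts of members called in the fit over all features are printed beside the share of all features called, and do not serve as a test of the members.

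The study used RiboTag, in which a tagged ribosomal protein (HA-Rpl22) is made only in cells with Cre recombinase, so that ribosome-bound RNA can be immunoprecipitated from them. All mice were adult C57BL/6 males of the D2Cre/LSL-Flag-Cas9/RiboTag line, carrying the D2Cre bacterial artificial chromosome transgene, so that Cas9 and the ribosomal tag were switched on in cells that express, or once expressed, the dopamine D2 receptor transgene. The medial prefrontal cortex (mPFC) was injected with AAV GFP in the Ctrl group (3 libraries) or with AAV Gsk3sgRNA/GFP, a guide against Gsk3b, in the Gsk3sKO group (3 libraries), and was dissected 3 weeks later. Both groups therefore carried Cas9, and the Ctrl virus carried no guide. The tag was made in every D2 cell of the dissected tissue, infected or not. Whether each library came from 1 mouse or from a pool is not given in the sources used here, so every p-value below refers to the variation among libraries, and that variation may be technical.

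TAK1 sits where several inflammatory and growth factor signals meet. IL-1 and Toll-like receptors recruit MyD88 and IRAK kinases, which engage TRAF6. TRAF6 then builds non-degradative ubiquitin chains that TAB2 and TAB3 bind, bringing TAK1 with TAB1 into an active complex. Active TAK1 phosphorylates the IKK complex, which releases NF-κB, and the MAP2 kinases upstream of JNK and p38. Pellino proteins bind phosphorylated IRAKs and add ubiquitin to them. In the brain this pathway is best known from glia, and it is also present in neurons.

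The findings below turn on pieces of sequence that separate transcripts of the same gene, so those pieces are shown first, 5′ to 3′ on the coding strand, from the GENCODE M21 transcripts on GRCm38. In Map3k7, exon 12 of ENSMUST00000037607 (chr4:31994874-31994954, + strand, 81 bases) is a cassette exon. It is coding throughout, adds 27 codons in frame, and is known to be alternatively spliced between tissues. ENSMUST00000080933 skips it. The exon is in capitals between 30 bases on each side, and the second line shows the junction without it.
Map3k7 with exon 12: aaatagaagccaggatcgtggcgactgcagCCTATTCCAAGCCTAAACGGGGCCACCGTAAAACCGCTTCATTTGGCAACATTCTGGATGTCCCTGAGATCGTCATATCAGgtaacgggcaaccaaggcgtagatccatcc
Map3k7 without exon 12: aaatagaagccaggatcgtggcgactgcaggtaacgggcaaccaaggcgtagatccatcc

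In Peli3, exon 4 of ENSMUST00000025834 (chr19:4936118-4936219, - strand, 102 bases, 34 codons) is absent from ENSMUST00000120475, and is shown in capitals in the same way.
Peli3 with exon 4: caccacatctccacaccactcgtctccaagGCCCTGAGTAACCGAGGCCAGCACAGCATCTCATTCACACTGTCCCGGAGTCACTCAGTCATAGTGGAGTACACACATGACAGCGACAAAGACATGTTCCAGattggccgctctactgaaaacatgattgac
Peli3 without exon 4: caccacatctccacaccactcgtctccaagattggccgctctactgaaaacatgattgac

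The main Irak1 transcripts differ within the coding sequence by 3 bases at the edge of exon 5 (chrX:74022662-74022664, - strand), in capitals here.
Irak1 ENSMUST00000114354: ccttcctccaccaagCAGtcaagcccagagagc
Irak1 ENSMUST00000114352: ccttcctccaccaagtcaagcccagagagc

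Peli1 is the opposite case. Its coding transcripts ENSMUST00000093290 and ENSMUST00000101477 have identical coding blocks of 1254 bases and differ only in noncoding bases at their 5′ ends, ENSMUST00000093290 by a separate first exon and ENSMUST00000101477 by 577 bases of a first exon that also holds the start codon. The coding sequence of both starts at the same place (chr11:21136115-21136185, + strand), with the start codon in capitals.
Peli1 coding start: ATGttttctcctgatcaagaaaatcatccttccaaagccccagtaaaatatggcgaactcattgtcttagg

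**Figure D1:**
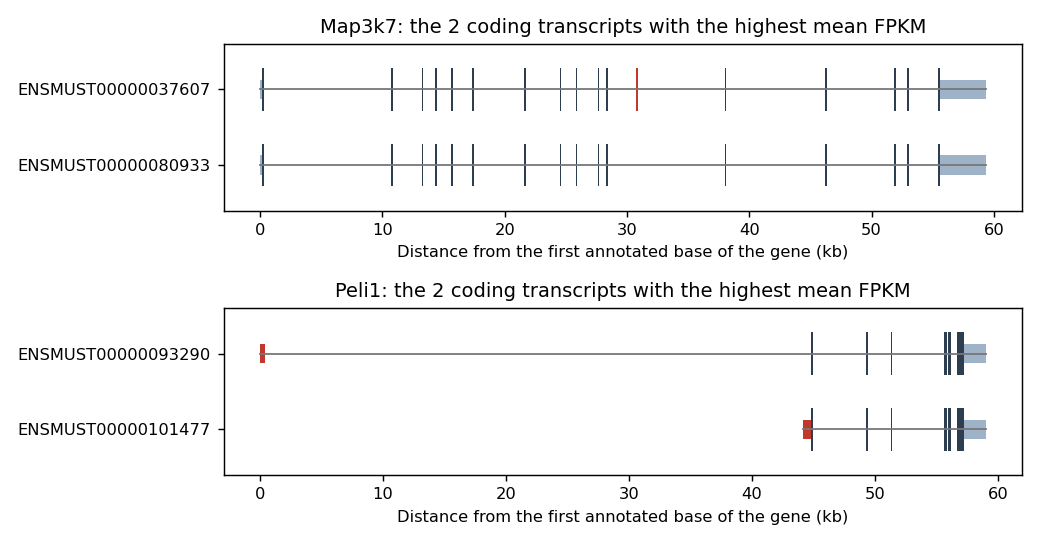
Exon structure of the Map3k7 and Peli1 coding transcripts with the highest mean FPKM, by distance from the first annotated base of the gene in kb, with coding exons as tall boxes, untranslated parts as short boxes and the differing exons in red. The Map3k7 transcripts differ by the 81-base exon 12, and the Peli1 transcripts by first exons whose starts lie 44178 bases apart.

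The values were FPKM (fragments per kilobase of transcript, scaled to library size), which are per length, so that levels of different genes can be set side by side. A gene total is the sum over its transcripts. Depth is not stated in the table, and the spacing of low values put it at about 23525000 to 45300000 fragments per library, although only 24.96% to 44.4% of those values fell within 0.05 of a whole number of fragments. At those depths the 9 gene totals would rest on 268 fragments at the lowest (Tab1, Gsk3sKO replicate 3) and 2230 at the highest (Peli1, Gsk3sKO replicate 1). The gene total of Gsk3b, the targeted gene, was 35.6, 53.8 and 56.5 FPKM in Ctrl and 36.9, 37.0 and 33.6 FPKM in Gsk3sKO (log2 fold change -0.40, SE 0.19, limma adjusted p = 0.773), and the groups overlapped. This RNA level does not measure the loss of protein. The paper scored the knockout by staining, and reported GSK3β protein missing from most mPFC cells with both Cas9 and the guide. The labelled cells' marker Drd2 was present in every library, at 1.58, 6.02 and 14.1 FPKM in Ctrl and 8.32, 5.96 and 7.28 FPKM in Gsk3sKO. Markers of other cells were present too, and the summed level of 12 microglia genes was 45.1 to 54.1 FPKM in Ctrl and 31.8 to 42.6 FPKM in Gsk3sKO, with no overlap.

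Of the 56 transcripts, 46 were above 0 in at least 1 library, 10 were listed at 0 in all, and 14 had a mean of at least 1 FPKM over the 6 libraries and entered the fit. Every one of the 9 gene totals passed that minimum. In a bulk immunoprecipitate a lower value can come from fewer cells of a type or from less RNA per cell, and these cannot be told apart.

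In Ctrl the genes fell into 3 levels. Peli1 was the highest, at 14.99 ± 1.53 FPKM (SD, n = 3), and stood at the 65.4th percentile of all tested gene totals. A middle group held Tab2 (9.46 ± 2.56), Map3k7 (7.16 ± 2.21), Peli3 (6.96 ± 0.276), Tab3 (6.87 ± 0.820), Tab1 (6.09 ± 1.42) and Irak1 (5.39 ± 0.737 FPKM). Traf6 (2.86 ± 0.542 FPKM) and Peli2 (2.17 ± 0.539 FPKM) were the lowest, at the 19.8th and 13.9th percentiles. Neighbours in this order overlapped, with 2 exceptions: the lowest Peli1 value (13.4 FPKM) lay above the highest Tab2 value (12.4 FPKM), and the lowest Irak1 value (4.54 FPKM) above the highest Traf6 value (3.48 FPKM). Within the middle group some genes further apart in the order did not overlap, since every Tab2 value lay above all Peli3 and Irak1 values, and every Peli3 and Tab3 value above all Irak1 values. The kinase and its 3 binding partners were present at overlapping levels per length, while the ligase Traf6 was between 0.304 and 0.544 times the Map3k7 level in the Ctrl libraries and between 0.282 and 0.314 times in the Gsk3sKO libraries.

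None of the 9 gene totals separated the groups. No member was called at an unadjusted limma p under 0.05, against 6.56% of all 12874 tested gene totals, and the ranges of Ctrl and Gsk3sKO overlapped for all 9, against 12% of all gene totals with no overlap. The median log2 fold change of the 9 was -0.08, and that of all gene totals -0.06. Leaving out Gsk3sKO replicate 2 gave 1 called gene, Tab1, with a log2 fold change of -0.80, against 5.01% of all gene totals called in that fit. Since the members were chosen on this contrast, nothing is read from these counts.

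**Figure D2:**
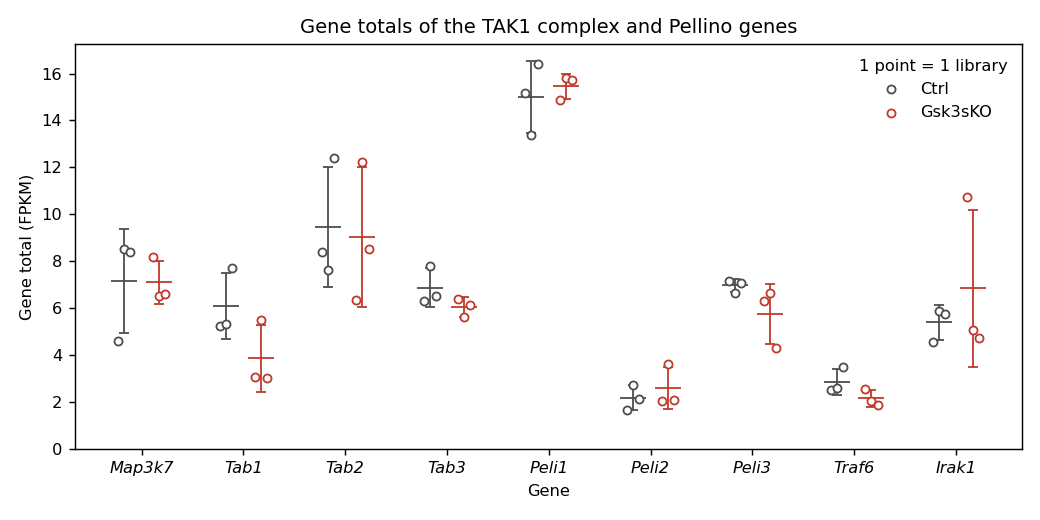
Gene totals in FPKM of the 9 genes, with 1 point per library, horizontal bars for the group mean and error bars for the SD (n = 3 per group). Ctrl and Gsk3sKO overlap for every gene, from Peli2 at 2.17 and 2.59 FPKM to Peli1 at 14.99 and 15.5 FPKM.

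Map3k7 (chr4:31964097-32023467, + strand), the kinase itself, had overlapping totals in the groups, while a different transcript carried the total in each. Its gene total was 4.61, 8.50 and 8.37 FPKM in Ctrl and 8.16, 6.51 and 6.62 FPKM in Gsk3sKO, a log2 fold change of 0.02 (SE 0.26). The transcript with exon 12, ENSMUST00000037607, was at 0.148, 0.151 and 0.0234 FPKM in Ctrl and 4.39, 5.96 and 5.39 FPKM in Gsk3sKO. It was near 0 in every Ctrl library and the most abundant Map3k7 transcript in every Gsk3sKO library. The transcript without exon 12, ENSMUST00000080933, was at 4.405, 7.69 and 8.23 FPKM in Ctrl and 1.39, 0 and 0 FPKM in Gsk3sKO. This is the mirror pattern, and the groups did not overlap for either transcript. On the log2(FPKM + 1) scale the differences were 2.49 (SE 0.35) and -2.50 (SE 0.49), which are 5.62-fold and 0.177-fold. That scale understates differences of low values.

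A share over all annotated transcripts that span exon 12 rests mostly on the same 2 transcripts, so it restates their difference and is no separate evidence. Of 6 such transcripts, 3 contain the exon and 3 skip it. The share of their FPKM that contained exon 12 was 4.398%, 1.92% and 0.284% in Ctrl and 74.96%, 93.1% and 82.3% in Gsk3sKO. The means were 2.20% ± 2.07 and 83.5% ± 9.13 (SD, n = 3 each), with no overlap and a difference of 81.3 percentage points. With any 1 library left out the difference was between 76.4 and 85.5 points. Map3k7 was chosen on this contrast, so that range is a description and no support. The evidence that separates these transcripts is short, since exon 12 makes up 81 of 5773 bases of the longer transcript and, apart from it, the transcripts differ by 23 bases at the 5′ end. At the estimated depths and the summed level of these transcripts, 81 bases would account for 14.9 to 20.3 fragments per library. This is a share by length. Fragments that overlap the exon in part or cross its junctions were not counted.

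The other 7 Map3k7 transcripts were low in most libraries. ENSMUST00000108183 and ENSMUST00000108184, both coding, were listed at 0 in every library. The noncoding ENSMUST00000147462, a short transcript that skips exon 12, was at 0 in all Ctrl libraries and at 0.0787, 0.441 and 1.16 FPKM in Gsk3sKO. ENSMUST00000131114, another noncoding fragment of the gene, reached 2.24 FPKM in Gsk3sKO replicate 1, above ENSMUST00000080933 in that library, and was at most 0.115 FPKM in the other 5. It ends upstream of exon 12 and accounts for most of the unassigned part of the Map3k7 total in that library.

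**Figure D3:**
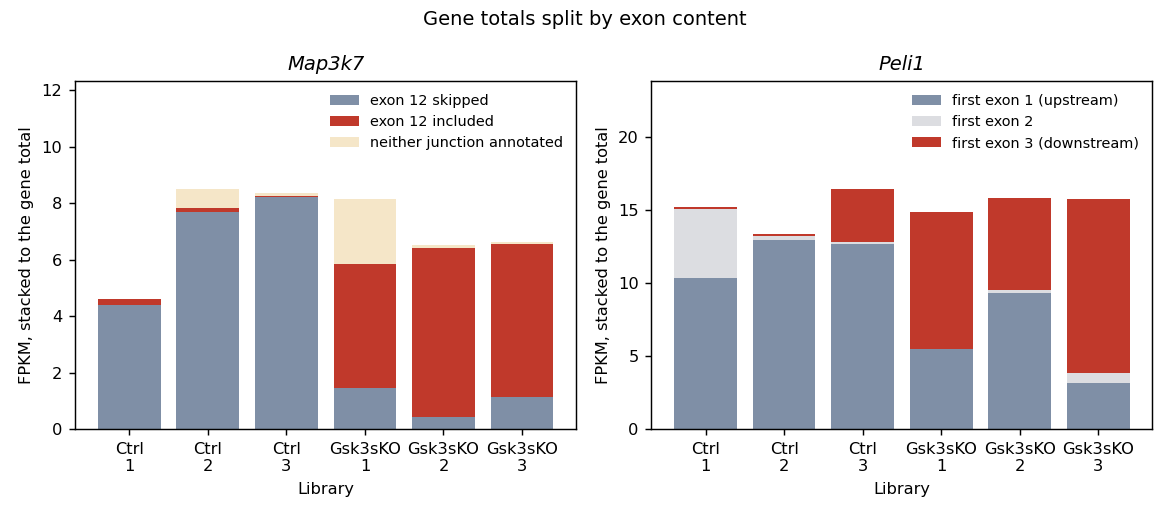
Gene totals of Map3k7 and Peli1 in FPKM, 1 stacked bar per library, split by whether the annotated transcript contains Map3k7 exon 12 and by the first exon of the Peli1 transcript. Exon 12 transcripts are 0.0234 to 0.203 FPKM in Ctrl and 4.39 to 5.96 FPKM in Gsk3sKO, and Peli1 from first exon 3 is 0.103 to 3.64 FPKM in Ctrl and 6.30 to 11.9 FPKM in Gsk3sKO, while the bar heights overlap.

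TAB1 binds the kinase domain of TAK1 and promotes its activation. Tab1 (chr15:80133127-80161707, + strand) has 1 annotated transcript, ENSMUST00000023050, so its total is not divided between isoforms. It was at 5.23, 5.33 and 7.73 FPKM in Ctrl and 3.05, 5.50 and 3.01 FPKM in Gsk3sKO. Gsk3sKO replicates 1 and 3 lay below all Ctrl libraries, and replicate 2 lay within the Ctrl range. The log2 fold change of the total was -0.57 (SE 0.28), the largest of the 9 in size.

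TAB2 and TAB3 link TAK1 to ubiquitin chains through a zinc finger. The Tab2 total (chr10:7905653-7956230, - strand) was 8.38, 7.62 and 12.4 FPKM in Ctrl and 6.34, 12.2 and 8.52 FPKM in Gsk3sKO, with a log2 fold change of -0.08 (SE 0.27). The coding transcript ENSMUST00000146444 held between 74.9% and 99.97% of it in each library and had a log2 fold change of -0.12 (SE 0.34). Tab2 thus varied more within each group than between the groups. The Tab3 total (chrX:85574022-85634469, + strand) was tighter, at 6.29, 7.81 and 6.51 FPKM in Ctrl and 6.41, 5.60 and 6.14 FPKM in Gsk3sKO (log2 fold change -0.16, SE 0.19). Its full-length coding transcript ENSMUST00000048250 had a log2 fold change of 0.12 (SE 0.26), and the short noncoding ENSMUST00000152880 one of -0.61 (SE 0.44).

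Traf6, the ligase that makes the ubiquitin chains for TAB2 and TAB3 (chr2:101678429-101701669, + strand), was at 2.51, 2.58 and 3.48 FPKM in Ctrl and 2.57, 2.05 and 1.87 FPKM in Gsk3sKO. The log2 fold change was -0.28 (SE 0.26), and Gsk3sKO replicate 1 lay within the Ctrl range. Its coding transcript ENSMUST00000004949 held 68.7% to 82.8% of the total, with a log2 fold change of -0.29 (SE 0.34).

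Irak1, the kinase that joins the receptor complex to TRAF6 and is bound by Pellino proteins (chrX:74013914-74023918, - strand), was at 4.54, 5.86 and 5.76 FPKM in Ctrl and 10.7, 5.07 and 4.73 FPKM in Gsk3sKO. Gsk3sKO replicate 1 stood above the other 5 libraries, which lay between 4.54 and 5.86 FPKM. The log2 fold change of the total was 0.22 (SE 0.30), and -0.11 without that library. Irak1 has the most annotated transcripts of the 9 genes, 22, of which 16 were above 0 somewhere. ENSMUST00000114354 was at 3.98, 1.67 and 4.96 FPKM in Ctrl and 0.393, 0.222 and 4.73 FPKM in Gsk3sKO. ENSMUST00000114352, shorter by 3 coding bases, was at 0, 1.44 and 0.0997 FPKM in Ctrl and 6.02, 0.0430 and 0 FPKM in Gsk3sKO. Both had groups that overlapped, with log2 fold changes of -1.01 (SE 0.71) and 0.48 (SE 0.90), and no exchange of isoforms was seen in all 3 Gsk3sKO libraries. In Gsk3sKO replicate 2 most of the total was assigned to ENSMUST00000033769 (2.11 FPKM) and ENSMUST00000114353 (1.74 FPKM), which were at 0 in every other library.

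Peli1, an E3 ligase that marks IRAK proteins with ubiquitin and the most abundant gene of the group, resembled Map3k7 in that its total did not separate the groups while one of its transcripts did. The total (chr11:21091291-21150323, + strand) was 15.2, 13.4 and 16.4 FPKM in Ctrl and 14.9, 15.8 and 15.7 FPKM in Gsk3sKO, with a log2 fold change of 0.05 (SE 0.16). ENSMUST00000101477, which begins at the downstream first exon (577 bases of it absent from the other coding transcript), was at 0.103, 0.187 and 3.64 FPKM in Ctrl and 9.34, 6.30 and 11.9 FPKM in Gsk3sKO. The groups did not overlap, and Ctrl replicate 3 was well above the other Ctrl libraries. The log2 fold change was 2.44 (SE 0.63), or 5.43-fold on the log2(FPKM + 1) scale.

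The remaining Peli1 transcripts did not move as 1 block. The coding ENSMUST00000093290, from the upstream first exon of 388 bases, was at 0, 12.9 and 12.7 FPKM in Ctrl and 5.47, 9.31 and 3.08 FPKM in Gsk3sKO. Its log2 fold change was 0.17 (SE 1.07), and -1.09 without Ctrl replicate 1, the library in which it was listed at 0. In that library 10.3 FPKM stood instead on ENSMUST00000156122, a retained-intron transcript that starts at the same base, which was at most 0.0932 FPKM in the other 5 libraries (log2 fold change -1.12, SE 1.01). A second retained-intron transcript, ENSMUST00000149675, held 4.76 FPKM there and at most 0.663 FPKM elsewhere. In Ctrl replicate 1, therefore, the Peli1 coding transcripts summed to 0.103 FPKM, against 13.1 to 16.3 FPKM in the other 5 libraries, although the gene total was like the others.

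Summing by first exon removed this exchange among transcripts that start at the same base. Peli1 from the upstream first exon was at 10.3, 12.9 and 12.7 FPKM in Ctrl and 5.51, 9.32 and 3.17 FPKM in Gsk3sKO, with no overlap. The downstream first exon, which starts 44178 bases further on, held 0.677%, 1.40% and 22.2% of the gene total in Ctrl and 62.9%, 39.9% and 75.6% in Gsk3sKO. Only ENSMUST00000101477 starts there, so this share restates its values. The means were 8.08% ± 12.2 and 59.5% ± 18.1 (SD, n = 3 each), a difference of 51.4 points. With any 1 library left out it was between 43.3 and 61.2 points. Peli1 was also chosen on this contrast, so that range is a description and no support. Unlike in Map3k7, the predicted coding sequence is the same from either start.

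**Figure D4:**
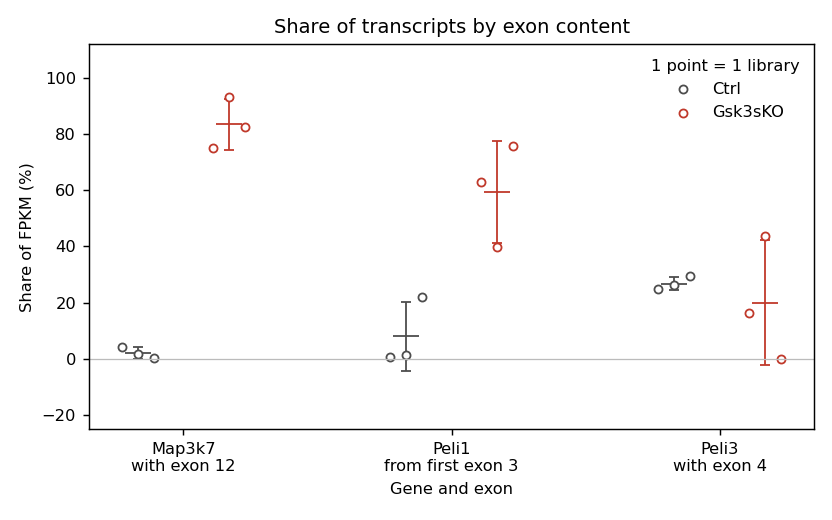
Share of FPKM, in percent, held by transcripts with Map3k7 exon 12, from Peli1 first exon 3 and with Peli3 exon 4, with 1 point per library, horizontal bars for the group mean and error bars for the SD (n = 3 per group). The groups separate for Map3k7 (2.20% and 83.5%) and Peli1 (8.08% and 59.5%) and overlap for Peli3 (26.8% and 20.04%).

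Peli2 and Peli3, the other Pellino ligases, kept their main transcripts. Peli2 (chr14:48120823-48281575, + strand), with 1 annotated transcript, ENSMUST00000073150, was at 1.66, 2.73 and 2.13 FPKM in Ctrl and 2.05, 3.62 and 2.09 FPKM in Gsk3sKO (log2 fold change 0.16, SE 0.29 for the gene total). The Peli3 total (chr19:4929717-4943127, - strand) was 7.17, 6.65 and 7.07 FPKM in Ctrl and 6.29, 6.65 and 4.28 FPKM in Gsk3sKO, with a log2 fold change of -0.26 (SE 0.22). Gsk3sKO replicate 3 was the lowest of the 6. Its main transcript ENSMUST00000120475, which skips exon 4, was at 5.39, 4.84 and 4.98 FPKM in Ctrl and 5.14, 2.97 and 4.28 FPKM in Gsk3sKO (log2 fold change -0.26, SE 0.28). ENSMUST00000025834, the full coding transcript with exon 4, was at 1.001, 1.47 and 2.06 FPKM in Ctrl and 0.0389, 0.179 and 0 FPKM in Gsk3sKO, with no overlap, but its mean was under 1 FPKM and it did not enter the fit. Over all 5 Peli3 transcripts that span exon 4, the share with the exon was 24.9%, 26.2% and 29.4% in Ctrl and 16.3%, 43.8% and 0% in Gsk3sKO, so the groups overlapped. The Gsk3sKO shares rest mostly on short transcripts. These were ENSMUST00000133254 (552 bases, 0.933 FPKM) in replicate 1 and the retained-intron ENSMUST00000139436 (794 bases, 2.13 FPKM) in replicate 2.

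Across the 14 tested transcripts, 3 were called at an unadjusted limma p under 0.05, 2 higher and 1 lower, and none at an adjusted p under 0.05. They were those of Map3k7 and Peli1 named above with no overlap. The choice of genes rests on the 2 higher ones, and the lower one, ENSMUST00000080933 of Map3k7, comes from the same contrast, so nothing is read from this count. Among all 21584 tested transcripts 5.56% were called, 1.81% higher and 3.75% lower, and 11.2% did not overlap between groups. On the log2(FPKM + 1) scale the largest rises were in ENSMUST00000037607 of Map3k7 (5.62-fold) and ENSMUST00000101477 of Peli1 (5.43-fold). The next highest was ENSMUST00000114352 of Irak1 (1.40-fold). That scale understates differences of low values: at a pseudocount of 0.1 the first 2 had log2 fold changes of 4.75 and 3.90. Among falls on the log2(FPKM + 1) scale, ENSMUST00000080933 of Map3k7 (0.177-fold) was followed by ENSMUST00000156122 of Peli1 (0.459-fold). The median log2 fold change of the 14 was -0.19, against -0.06 over all transcripts.

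The wider pathway was described from 132 genes in 8 classes. They were listed by role, not by their values, but with earlier results of these data known. Of these, 83 gene totals had a mean of at least 1 FPKM. An unadjusted p under 0.05 was found for 5 of the 83 (6.02%), 1 higher and 4 lower, near the 1.36% higher and 5.2% lower among all gene totals. None passed an adjusted p of 0.05, and the median log2 fold change was -0.08. The groups did not overlap for 11 of the 83 (13.3%), against 12% of all gene totals. Without Ctrl replicate 1 the count was 2, and without Gsk3sKO replicate 2 it was 1, against 5.33% and 5.01% of all gene totals in those fits. At transcript level 8 of 156 were called (5.13%), 1 higher and 7 lower, none with an adjusted p under 0.05. Among all transcripts 5.56% were called, 1.81% higher and 3.75% lower. Without Ctrl replicate 1 the count was 5, against 5.52% of all transcripts in that fit. For 15 of the 156 (9.62%) the groups did not overlap, against 11.2% of all transcripts. These shares lie close to the background of all features.

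Receptors and adaptors upstream of TAK1 gave no called gene total, against 6.56% of all gene totals called. Of 30 listed ligands and receptors only 8 reached 1 FPKM, and the highest in Ctrl were Il1rap, the IL-1 receptor accessory protein (5.45 ± 1.74 FPKM), and Bmpr1a, a BMP receptor (5.36 ± 0.676 FPKM). Of 21 adaptors and upstream kinases 11 were tested, with a median log2 fold change of -0.31. Tollip, an inhibitory adaptor of IL-1 and Toll-like receptor signals, led this class at 47.4 ± 13.9 FPKM in Ctrl and 35.3 ± 8.16 FPKM in Gsk3sKO (limma adjusted p = 0.802). Ecsit, an adaptor that binds TRAF6, followed at 16.7 ± 2.68 and 17.3 ± 5.80 FPKM. One transcript of Traf3, ENSMUST00000060274, was at 5.03, 1.68 and 3.29 FPKM in Ctrl and 0.249, 0 and 0.738 FPKM in Gsk3sKO (log2 fold change -1.67, SE 0.48, limma adjusted p = 0.776). TRAF3 restrains several branches of this signalling, and its gene total was not called (log2 fold change -0.47, SE 0.35).

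Summed microglia markers were lower in the same Gsk3sKO libraries, with 2 of 8 tested marker genes called lower and none higher. C1qa, C1qb and C1qc did not overlap between groups, whereas Cx3cr1, P2ry12 and Tmem119 did, and Tyrobp was listed at 0 in all 3 Gsk3sKO libraries and in Ctrl replicate 1. Of 10 oligodendrocyte markers 4 were called lower, although their summed levels overlapped (130 to 200 and 137 to 174 FPKM). None of the 10 markers each of astrocytes, endothelial cells and inhibitory neurons was called, and 2 of 10 excitatory neuron markers were called lower. Among all tested gene totals 5.2% were called lower and 1.36% higher, and 12% did not overlap between groups. What part other cells had in the values of the pathway genes was not tested.

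Among 11 ubiquitin enzymes, all of them tested, Rnf31 was the only one called, against 6.56% of all gene totals called. Rnf31 encodes HOIP, the catalytic subunit of the ligase that makes linear ubiquitin chains, and was at 12.99, 5.02 and 7.04 FPKM in Ctrl and 4.43, 4.51 and 3.87 FPKM in Gsk3sKO. The groups did not overlap (log2 fold change -0.74, SE 0.31, limma adjusted p = 0.751), and the call was lost without any single library except Ctrl replicate 2, with log2 fold changes from -0.80 to -0.40, the smallest without Ctrl replicate 1. The most abundant genes of the class were Sqstm1, a ubiquitin-binding scaffold (134 ± 16.9 FPKM in Ctrl), and Ube2n, the conjugating enzyme that works with TRAF6 (49.6 ± 4.55 FPKM). Neither was called, and Ube2n was close to equal in the groups (log2 fold change 0.05, SE 0.13). Of 13 tested deubiquitinases, phosphatases and inhibitors none was called, and the phosphatase Ppm1a was the steadiest of the abundant ones, at 75.9 ± 2.105 FPKM in Ctrl and 75.4 ± 2.54 FPKM in Gsk3sKO. Dusp14, a dual-specificity phosphatase, was at 44.8 ± 11.8 and 33.7 ± 9.60 FPKM.

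Downstream of TAK1, none of 9 tested gene totals of the IKK and NF-κB class was called, against 6.56% of all gene totals. Tbk1, an IKK-related kinase, was at 24.9 ± 0.414 FPKM in Ctrl and 25.6 ± 2.91 FPKM in Gsk3sKO, and Nfkbib, an inhibitor of NF-κB, at 16.0 ± 1.997 and 18.3 ± 2.47 FPKM. Ikbkb, which encodes the catalytic kinase IKKβ, had transcripts with opposite differences. ENSMUST00000033939 was at 0.137, 0 and 0.476 FPKM in Ctrl and 6.43, 4.85 and 3.82 FPKM in Gsk3sKO. It was the only pathway transcript called higher (log2 fold change 2.32, SE 0.38, limma adjusted p = 0.266). ENSMUST00000063401 was at 4.80, 2.26 and 4.35 FPKM in Ctrl and 0.0675, 1.24 and 1.81 FPKM in Gsk3sKO (log2 fold change -1.30, SE 0.50, limma adjusted p = 0.842). The groups did not overlap for either, and the call for ENSMUST00000063401 was lost without any of 4 single libraries, Ctrl replicates 1 and 3 and Gsk3sKO replicates 1 and 2 (-1.15, -1.20, -0.89 and -1.43). The Ikbkb gene total, as for Map3k7 and Peli1, was not called (log2 fold change 0.13, SE 0.18, limma adjusted p = 0.920).

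The MAP kinase branch also held abundant genes. Map2k4, a kinase that activates JNK and p38, was at 77.7 ± 7.70 FPKM in Ctrl and 79.6 ± 3.04 FPKM in Gsk3sKO, and the JNK scaffold Mapk8ip3 at 75.6 ± 3.52 and 71.6 ± 6.53 FPKM. Of 16 tested gene totals 2 were called, against 6.56% of all gene totals. Map2k3, a p38-activating kinase, was at 4.10, 1.80 and 2.03 FPKM in Ctrl and 1.26, 0.510 and 0.656 FPKM in Gsk3sKO (log2 fold change -0.98, SE 0.35, limma adjusted p = 0.692). Atf2, a transcription factor that JNK and p38 phosphorylate, was higher, at 38.4, 27.9 and 34.2 FPKM in Ctrl and 43.1, 55.2 and 38.4 FPKM in Gsk3sKO (log2 fold change 0.43, SE 0.18, limma adjusted p = 0.752). The Map2k3 call was lost without Ctrl replicate 1 (-0.71), Gsk3sKO replicate 2 (-0.86) or Gsk3sKO replicate 3 (-0.93), and the Atf2 call without Ctrl replicate 2 or 3 (0.31 and 0.45) or Gsk3sKO replicate 1 or 2 (0.46 and 0.29). Of 52 tested transcripts in this branch 3 were called, all lower. Among all transcripts 5.56% were called, 3.75% lower and 1.81% higher. ENSMUST00000119115 of Mapk8ip3 was at 10.1, 9.12 and 7.26 FPKM in Ctrl and 2.38, 4.28 and 2.93 FPKM in Gsk3sKO. ENSMUST00000178543 of the JNK gene Mapk9 was at 16.5, 4.86 and 6.01 FPKM in Ctrl and 0.151, 2.80 and 2.93 FPKM in Gsk3sKO. ENSMUST00000055833 of Atf2 was at 2.86, 2.58 and 0.886 FPKM in Ctrl and 0 in all 3 Gsk3sKO libraries. The gene totals of Mapk9 and Mapk8ip3 were not called, with log2 fold changes of 0.30 (SE 0.19) and -0.08 (SE 0.13). The Mapk9 transcript was no longer called without Ctrl replicate 1 (-1.31), Ctrl replicate 3 (-1.97) or Gsk3sKO replicate 1 (-1.21).

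Among 10 tested MAP3 kinases other than TAK1, only the neuronal JNK pathway kinase Map3k12 (DLK) was called, against 6.56% of all gene totals. Map3k12 was lower in Gsk3sKO and was also the highest of the class in Ctrl. Its total was 23.1, 19.7 and 22.4 FPKM in Ctrl and 17.8, 16.97 and 13.2 FPKM in Gsk3sKO, with no overlap (log2 fold change -0.43, SE 0.17, limma adjusted p = 0.741). The call was lost without Ctrl replicate 1 (-0.38), Ctrl replicate 3 (-0.41) or Gsk3sKO replicate 3 (-0.30). Its transcript ENSMUST00000169377 was at 13.2, 11.5 and 21.5 FPKM in Ctrl and 12.6, 0.00509 and 0.0490 FPKM in Gsk3sKO, so that 1 Gsk3sKO library lay within the Ctrl range. That transcript's call (log2 fold change -2.71) was lost without any of 5 single libraries, all but Gsk3sKO replicate 1, with values from -2.88 to -2.07. Map3k10, a related mixed-lineage kinase, was at 21.6 ± 3.83 and 25.5 ± 3.81 FPKM and was not called.

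Of 5 tested cell death genes, only Cflar was called, against 6.56% of all gene totals. Cflar encodes c-FLIP, an inhibitor of caspase activation at death receptors, and was at 5.89, 7.72 and 6.21 FPKM in Ctrl and 5.09, 4.32 and 2.55 FPKM in Gsk3sKO (log2 fold change -0.64, SE 0.26, limma adjusted p = 0.750). Without Gsk3sKO replicate 3 it was -0.41, and without Ctrl replicate 1, 2 or 3 or Gsk3sKO replicate 2 it lay between -0.71 and -0.54, in each case no longer called. Its transcript ENSMUST00000097722 was at 2.03, 2.51 and 1.97 FPKM in Ctrl and listed at 0 in all 3 Gsk3sKO libraries. The anti-apoptotic genes Bcl2l1 and Mcl1 were the most abundant of the class, at 41.2 ± 2.60 and 17.8 ± 0.867 FPKM in Ctrl and 29.0 ± 12.6 and 16.3 ± 1.73 FPKM in Gsk3sKO, and neither was called.

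**Figure D5:**
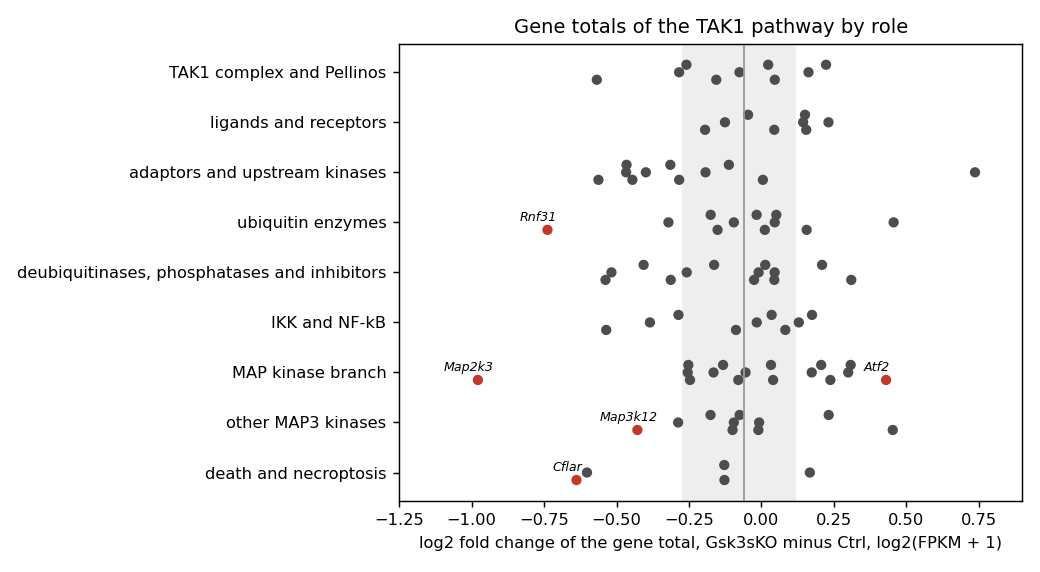
Log2 fold change of gene totals, Gsk3sKO minus Ctrl on the log2(FPKM + 1) scale, 1 point per tested gene in rows by role, with genes called at an unadjusted limma p under 0.05 in red, the median of all 12874 gene totals (-0.06) as a line and their middle quartiles (-0.27 to 0.12) shaded. The 9 TAK1 complex and Pellino genes lie between -0.57 and 0.22 with none called, and 5 of the 83 other pathway genes are called.

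Genes whose totals varied most like those of Map3k7 and Peli1 over the 6 libraries were sought among 12873 others. They were picked by Pearson's r of log2(FPKM + 1). This is a description, over libraries that differ in group and in estimated depth. The highest r among so many genes over 6 libraries can be large through the picking alone. For Map3k7 the genes picked were Crem (0.994), Map9 (0.990) and Bcar3 (0.988). For Peli1 they were Gm28062 (0.995), Hk1 (0.960) and Cluap1 (0.957). No member or listed pathway gene was among them.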

How the data were processed

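Ribosome-associated RNA from 3 Ctrl and 3 Gsk3sKO libraries was sequenced after a stranded total RNA preparation. Per the labels, the authors used HISAT2 2.1.0, SAMtools 1.9 and StringTie 1.3.4d on GRCm38, and deposited FPKM per transcript and library, with settings and annotation release not given in the sources used here. The deposited fold ratio, p-value and q-value columns hold the authors' own comparison and were not used.

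FPKM was summed by gene. Transcripts and gene totals with a mean of at least 1 FPKM were fitted with limma 3.58.1 (R 4.3.3, lmFit and eBayes with trend) on log2(FPKM + 1), two-sided, with Benjamini-Hochberg adjustment over all features tested. A call is an unadjusted p under 0.05. The fit was tested on simulated data. Exons were compared by position in GENCODE M21, which held 114237 of 115220 transcripts. Members and lists were chosen with earlier results of these data known. Named genes are all members and their tested transcripts, and in each class the 2 highest in Ctrl and up to 4 called. Alternatives were other pseudocounts, filters, scaling, an ordinary linear model, a replicate block and leaving out each library.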

Additional observations from a re-analysis of the deposited data

How the results depend on the processing

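Among the 9 genes, 276 of 282 recomputed log2 fold changes moved by less than the feature's own residual SD, and none of the called ones changed sign. That count is partly fixed in advance, since the filters, the ordinary linear model and the replicate block cannot change a log2 fold change. A wide spread also lets a large move pass: ENSMUST00000093290 of Peli1 went from 0.17 to -1.09 without Ctrl replicate 1. With no filter 6 of 46 member transcripts were called, against 2.75% of all transcripts, and with a minimum of 5 FPKM 1 of 3, against 6.11%. Leaving out each library gave 3 to 4 called member transcripts and 0 to 1 member gene totals, the 1 being Tab1 without Gsk3sKO replicate 2. In those fits 4.1% to 7.96% of all transcripts and 4.49% to 9.12% of all gene totals were called. Members were chosen on this contrast, so nothing is read from their counts. Smaller pseudocounts enlarged the Map3k7 differences, to 4.75 and -4.75 at 0.1 and to 3.24 and -3.18 at 0.5, and that of Peli1 to 3.90 at 0.1. Gene totals with small differences changed sign when single libraries were left out, with ranges of -0.23 to 0.15 for Map3k7, -0.30 to 0.13 for Tab2, -0.03 to 0.11 for Peli1 and -0.11 to 0.41 for Irak1. In the wider pathway, a minimum of 5 FPKM left 2 of 53 gene totals and 3 of 68 transcripts called, against 6.66% and 6.11% of all features. No filter gave 14 of 485 transcripts, against 2.75%. Leaving out each library gave 1 to 6 gene totals and 5 to 10 transcripts, beside the shares of all features given above for those fits. Of 158 recomputed values of the called pathway genes and transcripts, 106 stayed past the threshold and 52 did not, and none changed sign. Median-ratio scaling ended the calls of the Rnf31 (-0.68) and Map3k12 (-0.37) gene totals. An ordinary linear model ended those of the Rnf31, Atf2 and Cflar totals and of the Mapk9, Map3k12 and Ikbkb ENSMUST00000063401 transcripts. No filter ended those of the Rnf31 and Atf2 totals, and a minimum of 5 FPKM those of the Rnf31 and Cflar totals and the Mapk9 transcript. A pseudocount of 0.1 ended those of the Mapk9 and Ikbkb ENSMUST00000063401 transcripts. The replicate block ended these last 2 and the Atf2, Map3k12 and Cflar totals. With the replicate block 3 pathway gene totals and 12 pathway transcripts were called, and 3 member transcripts and 0 member gene totals. Over all features that fit called 6.38% of gene totals and 5.11% of transcripts. Same-numbered libraries deviated with r of -0.03, -0.01 and -0.08, and differently numbered ones with r from -0.03 to 0.05. With 3 libraries per group this cannot settle whether the replicate numbers pair the libraries. Precision is limited by 3 libraries per group, by a depth known only approximately, and by transcripts that share nearly all of their bases, so that few fragments separate them. The cause of the changes with filters and pseudocounts was not tested.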
